A study of Folsomia candida with 36 samples.

Results

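The comparison of day 2 with day 1 on soil set the libraries of springtails sampled at 36 and 48 h against those sampled at 12 and 24 h, in controls and in animals exposed to imidacloprid together. Libraries were chosen by the sampling time in their labels, with 12 on each side, so 24 of the 36 libraries of the study were used. Treatment and hour of day were covariates. Samples were 12 h apart, so 36 h fell at the same hour of the day as 12 h, and 48 h at the same hour as 24 h, and the hour of day was balanced between the days.

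The study measured whole-body messenger RNA by RNA sequencing in Folsomia candida, wild-type animals of the Berlin strain. Pools of 70 animals were put in glass jars on LUFA2.2, a natural soil that had been mixed either with water alone (control) or with imidacloprid at 0.25 mg per kg of dry soil, the concentration the series gives as its 20% effect level for reproduction. All groups shared the soil, a day of 16 h light and 8 h dark, 20 °C and 75% humidity. The 8 groups used here were control and imidacloprid at 12, 24, 36 and 48 h, with 3 libraries each. The labels do not say how replicate libraries were made, so p-values measure the spread between libraries, which may be partly technical. The labels give no age. Animals of day 2 had been in the jars a day longer and were a day older than those of day 1, and these 2 differences cannot be told apart. Library numbers in the titles lay between 2 and 25 on day 1 and between 29 and 51 on day 2. On day 1 the numbers 2 and 8 were each carried by more than 1 library, and imidacloprid 12 h replicate 5 had none. These ranges of numbers and the day cannot be told apart either, and the labels do not say what the numbers stand for.

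Folsomia candida is a parthenogenetic soil hexapod that goes on moulting as an adult, and feeding, moulting and egg laying alternate through its life. Imidacloprid is a neonicotinoid insecticide that binds nicotinic acetylcholine receptors in the nervous system. In whole animals a messenger RNA level sums over all tissues, so fewer cells of a type and less RNA per cell cannot be told apart. The deposited table lists genes by identifier without pairing them with names, and no identifier was found in the gene table of the species used here. Gene products and pathways are therefore not described.

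Total estimated counts ranged from 20280135 to 33852877 per library, with a median of 25542483, and 3 counts in the smallest library correspond to 0.148 counts-per-million (CPM), a floor that covers counting error only. Of 28734 gene models, 19130 had enough counts to be tested. A set of 108 genes that varied together over the libraries set 6 of the 24 apart. Its mean log2 CPM lay between -0.45 and 3.20 in 3 exposed libraries (12 h replicates 2 and 6, 24 h replicate 3) and 3 controls (36 h replicate 5, 48 h replicates 2 and 6), and between -3.21 and -2.60 in the other 18. The 3 such libraries of day 1 were thus all exposed and the 3 of day 2 all controls, so the set was balanced between the days but not within a treatment. Neither the total count (exact permutation of the days within treatment and hour, two-sided, p = 0.519), the number of genes with a count (exact permutation p = 0.760), the share of the 100 most abundant genes (exact permutation p = 0.254) nor the level of the set (exact permutation p = 0.976) passed a test between the days. The smallest of these p-values was 0.636 after adjustment over the 5 values tested, which include the share of variance below.

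Between day 1 and day 2, 174 genes changed, or 0.91% of those tested (edgeR quasi-likelihood test, Benjamini-Hochberg adjusted p under 0.05 in a model with day, treatment and hour of day). Of these, 41 rose (0.214% of tested genes) and 133 fell (0.695%). In a fit of the 18 libraries without the 6 that stood apart, edgeR called 4 genes, 1 higher and 3 lower. All 41 higher and all 133 lower genes kept their sign in those 18 libraries, and the median log2 fold changes were 1.12 and -0.79, against 1.16 and -0.83 with all 24. The same genes were chosen with these 18 libraries among the 24, so these medians describe the calls. The median standard error rose from 0.240 to 0.297 for the higher and from 0.171 to 0.215 for the lower genes when the 6 libraries were left out. At an unadjusted p under 0.05, 2450 of the tested genes differed with all 24 libraries (885 higher and 1565 lower), where the threshold alone would pass 956.5, and 1952 differed in the 18.

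The count also moved with single libraries. It was 887 without imidacloprid 48 h replicate 5, and between 76 and 186 without any other. It moved by more than 1.5 times without imidacloprid 48 h replicate 3 (76 genes), control 48 h replicate 2 (77), control 12 h replicate 3 (91), control 36 h replicate 4 (98), imidacloprid 36 h replicate 6 (101), control 36 h replicate 5 (106), imidacloprid 24 h replicate 2 (109), and imidacloprid 24 h replicate 6 or control 48 h replicate 6 (114 each). More genes were lower than higher in each of these fits. Of the 174 genes, between 75 and 174 were called again when 1 library was left out.

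**Figure D1:**
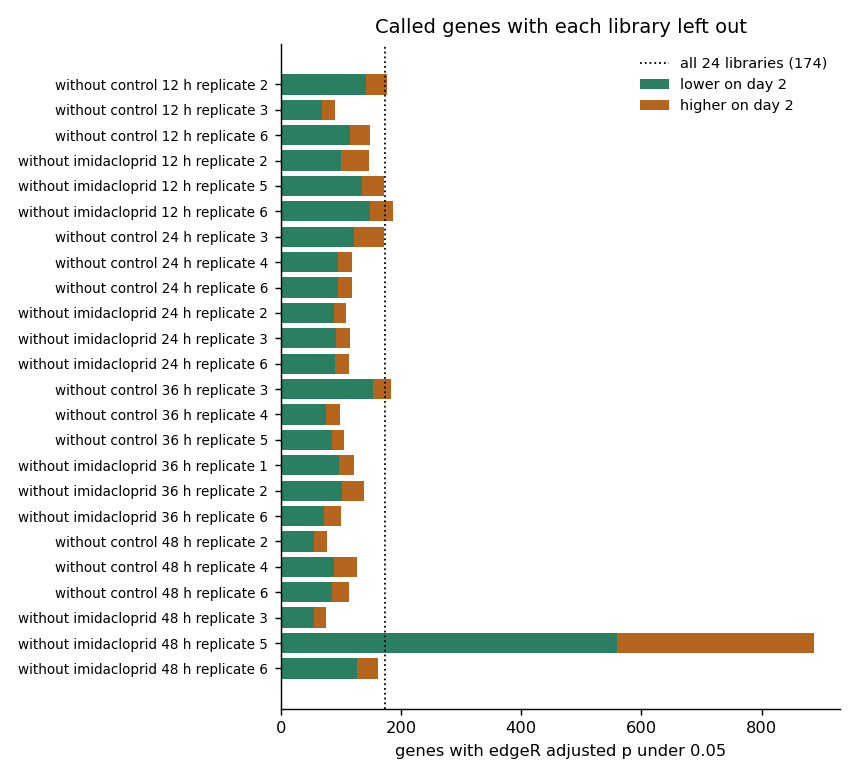
Number of genes called between day 2 and day 1 (horizontal axis; edgeR adjusted p under 0.05) when each of the 24 libraries was left out, stacked as lower (green) and higher (orange) on day 2; the dotted line is the count with all 24 libraries. The count stood at 887 without imidacloprid 48 h replicate 5 and between 76 and 186 without any other library, and the lower genes made up the larger part of every bar.

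In the same model the day called more genes than the other terms. Treatment called 8 genes (3 higher and 5 lower with imidacloprid) and the hour of day 2, of which 1 was also called by day. Of the variance of log2 CPM over all tested genes, 6.63% went with the day, against a median of 4.00% over all 160000 exchanges of the days within treatment and hour. This share did not pass the test (exact permutation p = 0.0857, upper tail, and 0.428 after adjustment over 5 values). Treatment accounted for 3.26% and hour of day for 4.83%. Without imidacloprid 48 h replicate 5 the share with day was 8.10% (exact permutation p = 0.0266, unadjusted), the highest of the 24 fits with 1 library left out. In the other 23 the test did not pass, with a share down to 5.36% and an exact permutation p up to 0.216.

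**Figure D2:**
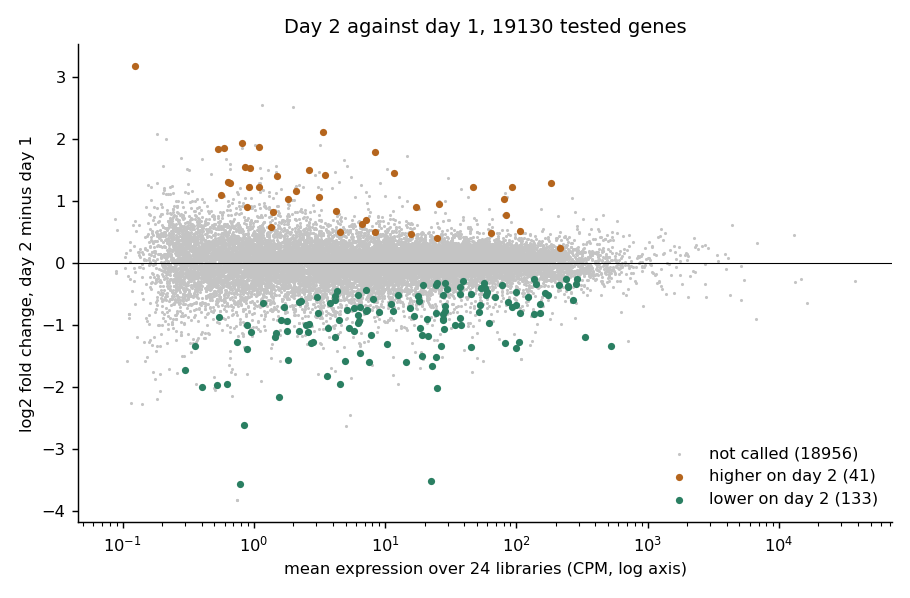
Log2 fold change of day 2 against day 1 (vertical axis) by mean level over the 24 libraries (horizontal axis, CPM, log scale) for the 19130 tested genes, with 41 called higher in orange, 133 called lower in green and the rest in grey. Called genes reached 3.17 above and -3.57 below 0, and the cloud of all genes was centred at 0.02.

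The genes that fell had a higher median level than those that rose and a smaller median change. Both lists were chosen by an adjusted p, which small changes pass more readily at high counts. Level and size of change are therefore tied by the choice of genes. The 133 lower genes had a median level of 18.2 CPM over the 24 libraries, and 19 of them stood at 100 CPM or more. The median of the 41 higher genes was 3.34 CPM, and 3 of them stood at 100 CPM or more. Under 1 CPM stood 11 of the 41 and 12 of the 133. Over all tested genes the median was 10.7 CPM. Among tested genes of 100 CPM or more, 0.143% were called higher and 0.906% lower. Among those under 1 CPM the shares were 0.315% and 0.344%.

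Log2 fold changes of the 41 higher genes ran from 0.24 to 3.17, with 25 over 2-fold, 2 over 4-fold and 8 under 1.5-fold. Those of the 133 lower genes ran from -3.57 to -0.26, with 51 over 2-fold, 5 over 4-fold and 37 under 1.5-fold. The median over all tested genes was 0.02. A test for changes of more than 0.5 on the log2 scale (glmTreat) left 17 genes, 4 higher and 13 lower. The higher genes together took between 0.0558% and 0.104% of the counts of a library on day 1, with a median of 0.0724%, and between 0.105% and 0.180% on day 2, with a median of 0.131%. The lower genes took between 0.656% and 1.17% on day 1, with a median of 0.729%, and between 0.392% and 0.606% on day 2, with a median of 0.503%. Neither share overlapped between the days, which the choice of genes on these libraries fixes.

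All 41 higher genes and 131 of the 133 lower genes changed in the same direction in each of the 4 pairs of groups that share treatment and hour. The calls on the same libraries favour this count. Of all 19130 tested genes 3421 changed in the same direction in all 4 pairs. Median log2 differences of the higher genes were 1.22 between 12 and 36 h and 0.88 between 24 and 48 h in controls, and 0.95 and 1.12 with imidacloprid. Those of the lower genes were -0.95 and -0.89 in controls and -0.83 and -0.65 with imidacloprid. Single genes did not separate the days completely: 0 of the 19130 tested genes (0%) had all 12 libraries of day 2 above, and 0 (0%) below, all 12 of day 1.

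Of the called genes that averaged 1 CPM or more, Fcan01_06632 fell the most. Its level on day 1 ranged from 7.89 to 72.1 CPM with a median of 41.7, and on day 2 from 0.496 to 26.6 CPM with a median of 2.46. The ranges overlapped, but 10 of the 12 libraries of day 2 lay below the lowest of day 1. The log2 fold change was -3.52 ± 0.46 (SE), 11.5-fold lower (edgeR adjusted p = 0.000239). Without the 6 libraries that stood apart it was -3.43, and the adjusted p of 0.0634 no longer passed.

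By group, Fcan01_06632 stood in controls at 35.8, 54.8 and 63.5 CPM at 12 h, at 7.89, 17.9 and 21.3 at 24 h, at 2.73, 1.36 and 1.89 at 36 h and at 0.496, 0.530 and 0.813 at 48 h. Exposed libraries stood at 72.1, 10.6 and 59.8 CPM at 12 h, 58.4, 47.6 and 24.7 at 24 h, 26.6, 5.85 and 3.53 at 36 h and 2.19, 10.3 and 5.53 at 48 h. In controls each of the 4 sets of 3 libraries lay wholly below the one before it, and with imidacloprid the libraries were more spread and the sets overlapped from 1 time point to the next. The 2 exposed libraries that kept the overlap between days were imidacloprid 36 h replicate 1 and imidacloprid 48 h replicate 5.

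Fcan01_16479, which had the next largest fall among called genes that averaged 1 CPM or more and moved one way in all 4 strata, stood between 0.178 and 6.56 CPM on day 1 with a median of 2.36, and between 0.0331 and 1.75 CPM on day 2 with a median of 0.339. Of the 12 libraries of day 2, 4 lay below the lowest of day 1 and all 12 below its median. Control 24 h libraries, at 1.17, 0.441 and 0.178 CPM, already lay within the range of day 2. The log2 fold change was -2.16 ± 0.53 (SE, edgeR adjusted p = 0.0483). This call sat near the threshold. It was lost without 19 of the 24 libraries, one at a time (all but imidacloprid 12 h replicates 5 and 6, control 24 h replicate 6 and imidacloprid 48 h replicates 5 and 6), with the fold change between -2.43 and -1.96, and in 7 of 14 other settings, with an adjusted p up to 0.423.

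Fcan01_26995 rose the most among called genes of at least 1 CPM. Day 1 libraries stood between 0.603 and 1.73 CPM with a median of 1.01, and day 2 libraries between 1.10 and 17.7 CPM with a median of 4.06. The highest level of day 1 was exceeded in 9 of the 12 libraries of day 2. The log2 fold change was 2.10 ± 0.38 (SE), 4.30-fold higher (edgeR adjusted p = 0.00642). Without the libraries that stood apart it was 2.23, with an adjusted p of 0.0861.

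Most of the rise of Fcan01_26995 lay at 48 h. Control libraries stood at 1.89, 1.10 and 4.37 CPM at 36 h and at 3.76, 8.34 and 8.52 at 48 h, and exposed libraries at 1.20, 1.57 and 2.17 at 36 h and at 17.7, 12.3 and 4.84 at 48 h. All 6 libraries of 48 h lay above all 12 of day 1, while those of 36 h overlapped them. The difference of the 2 hours was not called for this or any other gene, as given below.

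Fcan01_17222 had the next largest rise under the same limits. It stood between 0 and 1.29 CPM on day 1 with a median of 0.497, and between 0.389 and 3.37 CPM on day 2 with a median of 1.54. In 7 of the 12 libraries of day 2 the level exceeded the highest of day 1. The log2 fold change was 1.86 ± 0.45 (SE, edgeR adjusted p = 0.0431). This call too was lost without 19 of the 24 libraries, one at a time (all but control 12 h replicate 6, control 24 h replicate 3, control 48 h replicates 4 and 6 and imidacloprid 48 h replicate 5), with values between 1.70 and 2.01, and in 7 of 14 other settings, with an adjusted p up to 0.435.

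**Figure D3:**
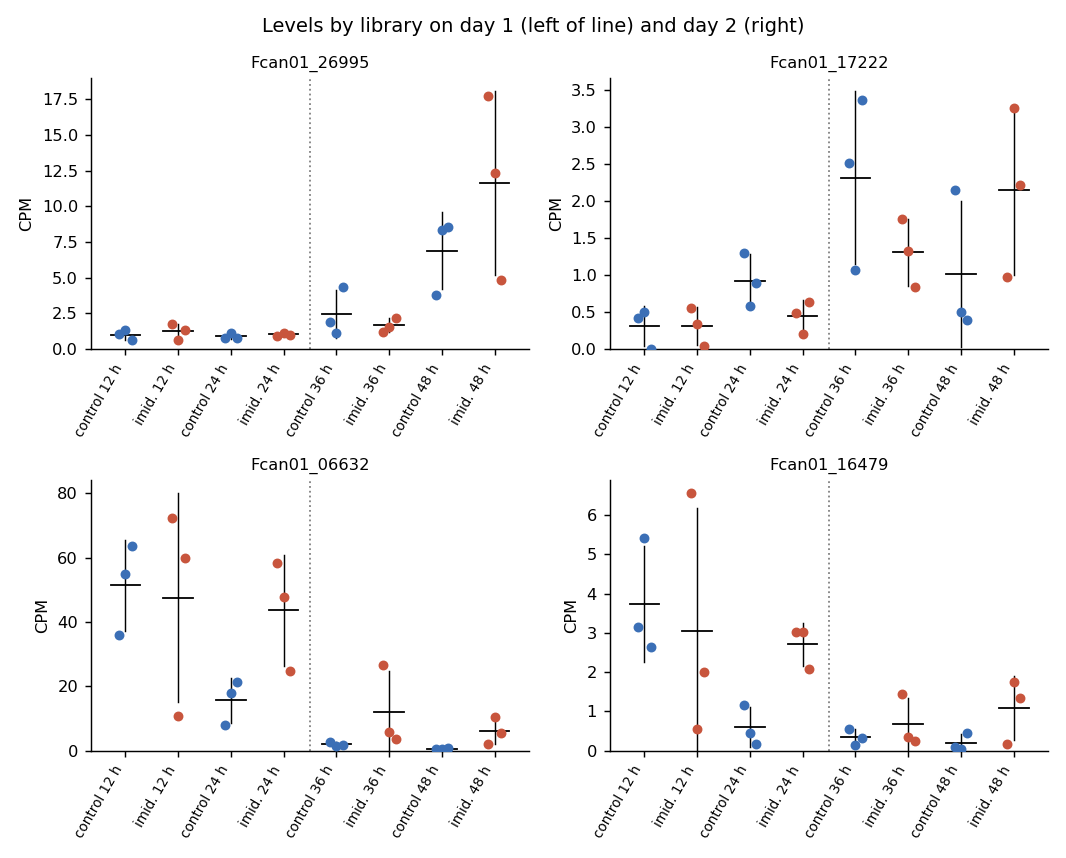
Level (CPM, vertical axes, each from 0) of the 4 genes named for the comparison of all 24 libraries, by group; each point is a library (blue control, red imidacloprid), bars are group means with SD (n = 3, cut at 0) and the dotted line parts day 1 from day 2. Fcan01_26995 was highest at 48 h, where the exposed libraries reached 17.7 CPM, and Fcan01_06632 fell from 51.4 CPM at 12 h to 0.613 CPM at 48 h in control means.

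The 4 genes still called in the 18 libraries without the 6 that stood apart were Fcan01_28014, Fcan01_26946, Fcan01_20011 and Fcan01_28166, named here after their values were seen. Fcan01_26946 had the smallest p of the main comparison. It stood between 1.87 and 4.28 CPM on day 1 with a median of 2.93, and between 0.771 and 2.27 CPM on day 2 with a median of 1.34, and 11 of the 12 libraries of day 2 lay below the lowest of day 1. Its log2 fold change was -1.10 ± 0.13 (SE, edgeR adjusted p = 0.000163) in the 24 libraries and -1.08 ± 0.17 (edgeR adjusted p = 0.0419) in the 18.

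The other 3 had a mean under 1 CPM over the 24 libraries. Fcan01_28014 stood between 0.123 and 0.668 CPM on day 1 and between 0.496 and 2.75 CPM on day 2, where 10 of 12 libraries exceeded the highest of day 1, and its log2 fold change was 1.93 ± 0.30 (SE, edgeR adjusted p = 0.00147). Fcan01_28166 stood between 0.459 and 4.59 CPM on day 1 and between 0.0662 and 0.785 CPM on day 2, a log2 difference of -2.61 ± 0.35 (edgeR adjusted p = 0.000264). Fcan01_20011 had the largest fall of all 133, -3.57 ± 0.49 (edgeR adjusted p = 0.000323). Its range was 0.202 to 4.68 CPM on day 1 and 0 to 0.693 CPM on day 2, and the median of day 2, 0.0411 CPM, lay under the floor of 0.148 CPM, which leaves the size of this fall uncertain. For the last 2 genes, 10 of the 12 libraries of day 2 lay below the lowest of day 1.

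In controls alone the question is which genes differed between the days with no insecticide in the soil. There 35 genes changed (0.183% of those tested), 4 higher (0.0209%) and 31 lower (0.162%), by edgeR contrasts of the 8 group means. None of the 35 followed the set of 108 genes, against 2.90% of all tested genes. With the level of the set as a covariate the count was nonetheless 9, of which 8 were among the 35. The libraries that stood apart include 3 of the 6 controls of day 2. Without them control 48 h and imidacloprid 12 h keep a single library each, so calls of that fit are not given. DESeq2 called 506, limma-voom 23 and library-weighted limma-voom 816 with all 24 libraries. The count was 75 without control 12 h replicate 2. It fell by more than 1.5 times, to between 10 and 22, without control 12 h replicates 3 or 6 (17 and 16), control 24 h replicates 4 or 6 (12 and 11), imidacloprid 24 h replicate 2 (22), control 36 h replicates 4 or 5 (18 and 11) and control 48 h replicates 2 or 6 (11 and 10).

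Fcan01_06632 again had the largest fall, -4.67 ± 0.57 in log2 units (SE, edgeR adjusted p = 0.00175), from the control values given above. Fcan01_11408 fell from 6.71, 18.2 and 4.31 CPM at 12 h and 5.78, 2.61 and 2.98 CPM at 24 h to 1.89, 2.57 and 2.96 CPM at 36 h and 0.578, 0.728 and 0.530 CPM at 48 h. Each of its 6 control libraries of day 2 lay under each of day 1 except control 36 h replicate 5, which lay between 24 h libraries. Its log2 fold change in controls was -2.30 ± 0.34 (SE, edgeR adjusted p = 0.00495).

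Fcan01_26995 rose in controls by 2.12 ± 0.37 in log2 units (SE, edgeR adjusted p = 0.0199), a call lost without control 12 h replicate 6, control 24 h replicates 4 or 6, control 36 h replicate 5 or control 48 h replicate 6. Fcan01_15970 rose from 1.45, 0.463 and 0.464 CPM at 12 h and 1.13, 2.20 and 2.58 CPM at 24 h to 4.17, 2.93 and 3.70 CPM at 36 h and 3.35, 6.06 and 5.27 CPM at 48 h, with no overlap between the days in controls. The log2 fold change was 1.75 ± 0.34 (SE, edgeR adjusted p = 0.0338). The calls of Fcan01_26995 and Fcan01_15970 were lost in 6 and 5 of 14 other settings, with an adjusted p up to 0.410 and 0.353, and those of Fcan01_06632 and Fcan01_11408 in 1 and 3, up to 0.293 and 0.308. That of Fcan01_15970 was lost without 14 of the 24 libraries, one at a time: 11 of the 12 controls (all but control 12 h replicate 2), imidacloprid 24 h replicate 2 and imidacloprid 36 h replicates 2 and 6.

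In exposed animals alone edgeR called 1 gene (0.00523% of those tested), Fcan01_17957, which was higher on day 2. It stood at 49.3, 32.3 and 39.4 CPM at 12 h and 66.6, 79.3 and 47.0 CPM at 24 h, and at 131, 152 and 77.0 CPM at 36 h and 117, 347 and 287 CPM at 48 h. On day 2, 5 of the 6 exposed libraries lay above all exposed libraries of day 1, and imidacloprid 36 h replicate 6 lay just under the highest of them. The log2 fold change was 1.77 ± 0.23 (SE, edgeR adjusted p = 0.00526). The call was lost without imidacloprid 24 h replicate 2. It was also lost in a fit of the 12 exposed libraries (edgeR adjusted p = 0.307), with a replicate block (0.0603) and with glmTreat (0.0521). The same held without the libraries that stood apart (value 2.02) and without those of irregular title. Both of these fits leave imidacloprid 12 h with a single library.

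At an unadjusted p under 0.05, 1451 genes differed with imidacloprid (377 higher and 1074 lower), against 2699 in controls. DESeq2 called 152 genes with imidacloprid, limma-voom 1 and library-weighted limma-voom 93. The edgeR count was 13 without imidacloprid 12 h replicate 5, 4 without imidacloprid 48 h replicate 3, 3 without control 36 h replicate 4 or imidacloprid 36 h replicate 1, and 2 without control 36 h replicate 3, control 48 h replicate 6 or imidacloprid 48 h replicate 5. A smaller number of calls in 1 treatment does not show that the treatments differ, which the following contrast tests.

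The change of the day difference with treatment asks whether imidacloprid altered what happened between the days. For 48 genes (0.251% of those tested) the differences were not the same, with 2 genes moving upward with imidacloprid relative to controls (0.0105%) and 46 downward (0.24%). None of the 174 genes called between the days over both treatments was among the 48. All 46 of the latter kind had a correlation over 0.8 with the level of the set of 108 genes over the 24 libraries, as had 2.90% of all tested genes, and 32 of them belonged to the set. The 6 libraries that stood apart held at least 70.7%, in the median gene 94.0%, of the counts of each of the 46. Without those libraries control 48 h and imidacloprid 12 h keep a single library each, so calls of that fit are not given. The count was 0 with the level of the set as a covariate (550 at an unadjusted p under 0.05). It was 0 with limma-voom, 3 with library-weighted limma-voom and 330 with DESeq2.

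No single library could be left out without moving this count except control 36 h replicate 4. It rose to 374 without control 48 h replicate 4, 288 without imidacloprid 12 h replicate 5, and 122 and 116 without replicates 6 and 2 of imidacloprid 24 h. It fell to 17 without control 36 h replicate 3 and to 0 without each of the other 18.

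Fcan01_17957 was one of the 2 genes that moved upward. Control libraries stood at 33.3, 50.2 and 39.0 CPM at 12 h, 55.0, 33.6 and 34.5 at 24 h, 53.5, 60.3 and 51.6 at 36 h and 33.7, 41.9 and 36.1 at 48 h, and so overlapped between the days, whereas the exposed libraries rose as given above. The day difference was 0.15 ± 0.23 (SE) in controls and 1.77 ± 0.23 with imidacloprid on the log2 scale, a difference of 1.62 ± 0.32 (edgeR adjusted p = 0.0462). Fcan01_08641 showed the reverse arrangement. In controls it stood at 1.92, 2.97 and 4.36 CPM at 12 h, 1.98, 2.71 and 1.91 at 24 h, 0.875, 0.916 and 0.926 at 36 h and 1.53, 1.39 and 1.06 at 48 h, with no overlap between days, and with imidacloprid all 12 libraries lay between 1.64 and 2.59 CPM. The day difference was -1.25 ± 0.19 (SE) in controls and 0.19 ± 0.19 with imidacloprid, a difference of 1.43 ± 0.27 (edgeR adjusted p = 0.0449).

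Both calls were lost without the libraries that stood apart (log2 values 1.76 and 1.34), where control 48 h and imidacloprid 12 h keep a single library each. Leaving out single libraries, that of Fcan01_17957 held without imidacloprid 12 h replicate 5, imidacloprid 24 h replicates 2 or 6 or control 48 h replicate 4, and was lost without each of the other 20, with values between 1.45 and 1.79. That of Fcan01_08641 held without these 4 and control 36 h replicate 4 and was lost without each of the other 19, with values between 1.27 and 1.56. In other settings they were lost in 10 of 13 and 9 of 12.

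The largest downward differences were fitted for Fcan01_00201 and Fcan01_09433, which had counts almost only in the libraries that stood apart. Fcan01_00201 stood at 45.9 and 28.1 CPM in imidacloprid 12 h replicates 2 and 6, 24.0 in imidacloprid 24 h replicate 3, 1.11 in control 36 h replicate 5 and 56.5 and 74.2 in control 48 h replicates 2 and 6. In each of the other 18 libraries it was at 0 to 0.119 CPM, under the floor of 0.148 CPM. Fcan01_09433 stood at 25.2, 22.0, 12.3, 0.667, 34.1 and 38.9 CPM in the same 6 libraries and at 0 to 0.0803 CPM in the others. The fitted fold changes of these 2 genes measure no size, since the groups without such a library were at or under the floor.

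The differences of the 174 genes over the treatments stood side by side as follows, with values from the same libraries that chose them. The 41 higher genes had a median log2 difference of 1.19 in controls and 1.03 with imidacloprid, and the difference was the larger one in controls for 24 of the 41. The 133 lower genes had medians of -0.90 and -0.74, and for 91 of the 133 the difference was the larger one in controls. Over all tested genes this held for 60.7%. At an unadjusted p under 0.05 the change with treatment passed for 0 of the 41 and 8 of the 133, against 6.23% of all tested genes. The change with hour of day passed for 3 and 16, against 6.51%.

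Fits to separate libraries give values that the calls did not use. The 12 control libraries fitted alone called 12 genes, all lower on day 2 (0.0648% of the 18530 genes tested there). In the 12 exposed libraries fitted alone all 12 of these were lower too, and all 12 had an unadjusted p under 0.05, though 0 passed after adjustment. Of all genes tested in both fits, 47.5% were lower on day 2 with imidacloprid, and 4.17% were lower with an unadjusted p under 0.05. The median log2 fold change of the 12 was -1.77 in controls and -1.14 in exposed animals. The exposed libraries alone called 0 genes (0%; edgeR, 1087 at an unadjusted p under 0.05), so the reverse reading could not be made.

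Across the 18114 genes tested in both fits, the day differences of controls and exposed animals had a Pearson correlation of -0.39 and a Spearman correlation of 0.29, given as a description, since genes are not independent and share their libraries. Leaving out the genes that followed the set of 108, which were high in exposed animals on day 1 and in controls on day 2, the values were 0.38 and 0.35 over 17832 genes. The differences had the same sign in 61.6% of all genes and in 62.6% without those that followed the set, 11160 genes in both cases. Every gene left out thus had opposite signs in the 2 treatments. These genes were picked on the same libraries, and leaving them out favours the rise of the correlations.

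**Figure D4:**
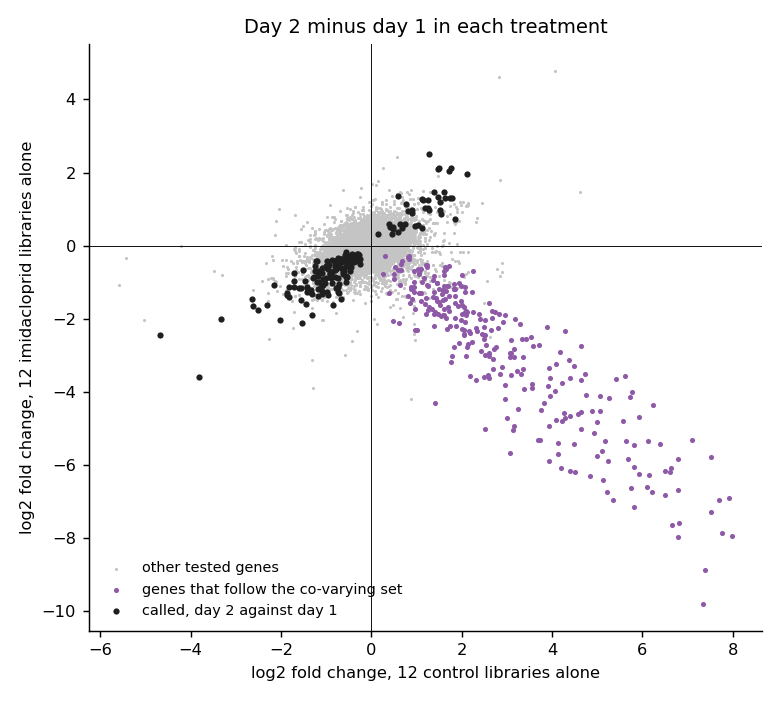
Log2 fold change of day 2 against day 1 in the 12 control libraries fitted alone (horizontal axis) and in the 12 exposed libraries fitted alone (vertical axis), each point a gene, with the genes that followed the set of 108 in purple and the genes called over all 24 libraries in black. The purple genes were higher on day 2 in controls and lower with imidacloprid, and the black genes, chosen on these same libraries, lay where the treatments had the same sign.

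The days were also compared at each hour. Between 12 and 36 h, 46 genes changed (0.24% of those tested), 4 higher (0.0209%) and 42 lower (0.22%), as means over the treatments. Between 24 and 48 h, 25 genes changed (0.131%), 4 higher (0.0209%) and 21 lower (0.11%). The contrasts use different libraries but share the estimate of the spread, and 8 genes, all lower, were called in both, which is 17.4% of the former list and 32.0% of the latter. Without the libraries that stood apart imidacloprid 12 h and control 48 h keep a single library each, so calls of that fit are not given.

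For 36 against 12 h the count was 68 without control 12 h replicate 2. It moved by more than 1.5 times without imidacloprid 36 h replicate 6 (3 genes), control 36 h replicate 4 (8), imidacloprid 12 h replicate 2 (13), control 36 h replicate 5 or imidacloprid 36 h replicate 2 (16 each), control 12 h replicate 6 (21), control 36 h replicate 3 (24) and control 12 h replicate 3 (26). For 48 against 24 h it rose to 56 without control 24 h replicate 3 and fell to between 1 and 13 without 18 others, the lowest being 1 without control 48 h replicate 2 and 2 without control 24 h replicate 6 or control 48 h replicate 6. The 5 libraries whose loss moved this count by less were replicates 2 and 6 of control 12 h, replicate 3 of control 36 h, replicate 6 of imidacloprid 12 h and replicate 5 of imidacloprid 48 h.

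From 12 to 36 h, Fcan01_06632 fell by 3.34 ± 0.53 on the log2 scale (SE, edgeR adjusted p = 0.0108), and Fcan01_10778 fell by 3.02 ± 0.49 (edgeR adjusted p = 0.0111). Both calls were lost without control 36 h replicate 4 or imidacloprid 36 h replicate 6. That of Fcan01_06632 was also lost in a fit of the 12 libraries of these times (edgeR adjusted p = 0.104), while that of Fcan01_10778 held in all 13 other settings. The call of Fcan01_06632 was lost, too, without the libraries that stood apart, where the value was -2.24. That fit leaves imidacloprid 12 h with a single library. Fcan01_10778 stood at 5.77, 4.25 and 6.03 CPM in controls and 4.42, 2.50 and 9.74 CPM with imidacloprid at 12 h. Its 36 h levels were 0.245, 0.183 and 0.407 CPM in controls and 1.80, 1.33 and 1.61 CPM with imidacloprid. All libraries of 36 h lay under all of 12 h, with the controls lower than the exposed libraries at 36 h. At 48 h control replicate 6 stood at 7.64 CPM, far above the 0.867 and 0.861 CPM of the other control libraries.

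Fcan01_15970 rose from 12 to 36 h by 1.68 ± 0.34 on the log2 scale (SE, edgeR adjusted p = 0.0373), with exposed libraries at 1.89, 1.05 and 1.03 CPM at 12 h and 2.63, 2.90 and 3.45 CPM at 36 h. All 6 libraries of 36 h lay above all 6 of 12 h. Fcan01_21096 rose by 1.56 ± 0.32 (edgeR adjusted p = 0.0409) from 69.6, 115 and 50.6 CPM in controls and 121, 48.3 and 43.2 CPM with imidacloprid at 12 h to 338, 210 and 299 CPM and 209, 202 and 104 CPM at 36 h. Only imidacloprid 36 h replicate 6 lay within the range of 12 h. The call of Fcan01_15970 was lost without 17 libraries, one at a time (all but control 12 h replicate 2, control 24 h replicates 3 and 6, control 48 h replicate 4 and the 3 of imidacloprid 48 h), and that of Fcan01_21096 without 18 (all but control 12 h replicate 3, imidacloprid 12 h replicate 2, control 48 h replicates 2 and 4 and imidacloprid 48 h replicates 3 and 5). In 13 other settings they were lost in 6 and 7, with an adjusted p up to 0.527 and 0.316.

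From 24 to 48 h, Fcan01_26995 rose by 3.22 ± 0.38 on the log2 scale (SE, 9.33-fold, edgeR adjusted p = 0.000986), from levels between 0.757 and 1.15 CPM at 24 h to those at 48 h given above. This call held when each of the 24 libraries was left out in turn and in each of the 13 other settings tried. Among these, the fit without the libraries that stood apart leaves control 48 h with a single library. Fcan01_11010 rose by 2.52 ± 0.38 (edgeR adjusted p = 0.0133). It stood at 13.5, 29.9 and 15.5 CPM in controls and 16.0, 5.96 and 18.4 CPM with imidacloprid at 24 h, and at 113, 142 and 39.3 CPM and 98.2, 94.4 and 75.1 CPM at 48 h, with no overlap. Its call held in the 13 other settings and was lost without control 24 h replicate 6, imidacloprid 24 h replicate 2 or control 48 h replicate 2.

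Fcan01_11010 did not separate 36 h from 12 h: it stood between 15.2 and 58.8 CPM at 12 h and between 21.0 and 46.4 CPM at 36 h. Fcan01_06632 fell from 24 to 48 h by 3.76 ± 0.55 on the log2 scale (SE, edgeR adjusted p = 0.0120), a call lost without control 48 h replicate 2 or 6. The call was also lost without the libraries that stood apart, a fit that leaves control 48 h with a single library. Fcan01_06702 fell by 1.98 ± 0.36 (edgeR adjusted p = 0.0416), from 3.16, 2.51 and 1.96 CPM in controls and 8.59, 6.65 and 5.05 CPM with imidacloprid at 24 h to 0.661, 1.13 and 0.778 CPM and 0.852, 1.71 and 1.27 CPM at 48 h. Its libraries did not overlap between these times. This call was lost without control 12 h replicate 3, control 36 h replicate 5, imidacloprid 36 h replicate 2, or any library of 24 or 48 h other than control 24 h replicate 3 and imidacloprid 48 h replicate 5, and in 4 of 13 other settings.

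The change of the day difference with the hour of day was not called for any gene by edgeR (0 genes, 0% of those tested), with 1246 genes at an unadjusted p under 0.05, where the threshold alone would pass 956.5, and a smallest adjusted p of 0.185. By DESeq2 43 genes were called, by limma-voom 0 and by its library-weighted form 313. It was 1 gene without control 12 h replicate 2 or 6. The 41 higher genes had a median log2 difference of 1.07 from 12 to 36 h and 0.96 from 24 to 48 h, and the 133 lower genes had -0.91 and -0.73.

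Separate fits of the 12 libraries of each hour called fewer genes. The libraries of 12 and 36 h alone called 4, all lower (0.0217% of the 18397 tested there), of which 3 were tested at 24 and 48 h, where all 3 were lower, as were 49.7% of all genes tested in both fits, and 2 had an unadjusted p under 0.05. Of all genes tested in both fits, 5.85% were lower at 48 h than at 24 h with such a p. The libraries of 24 and 48 h alone called 9 (0.0488% of 18433), 2 higher (0.0109%) and 7 lower (0.038%). Between 12 and 36 h, 1 of the 2 and 6 of the 7 had the same direction, against 49.5% and 50.5% of all genes tested in both fits, with an unadjusted p under 0.05 for 1 and 4. There 4.77% of all genes were higher and 6.09% lower with such a p.

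Libraries of 60 and 72 h were not part of the comparison, and their levels are given beside it as a description that reuses the libraries of days 1 and 2. Of the 3 imidacloprid libraries of 72 h, 2 carry the same replicate number, 4. Their chi-square per degree of freedom was 112, within the range of replicate pairs of days 1 and 2, so they were counted as 2 libraries, but their titles do not say whether they are separate replicates. The mean of day 3 lay above that of day 1 for all 41 higher genes and below it for all 133 lower genes. Of all 19130 tested genes 9895 lay above and 9235 below. The median log2 difference from day 1 to day 3 was 1.14 for the higher and -0.74 for the lower genes, and from day 2 to day 3 it was 0.05 and 0.06, against 0.09 over all tested genes. Of the 41 higher genes 23 lay above their mean of day 2 on day 3, and of the 133 lower genes 54 lay below it. Over all tested genes 11128 lay above and 8002 below, so both counts were near the share of all genes. The level of day 3 was closer to day 2 than to day 1 for 35 of the 41 and 113 of the 133, against 8578 of all 19130 tested genes. The called genes were chosen for a gap between days 1 and 2, which most tested genes lack. The last count is therefore no matched background for the other 2.

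**Figure D5:**
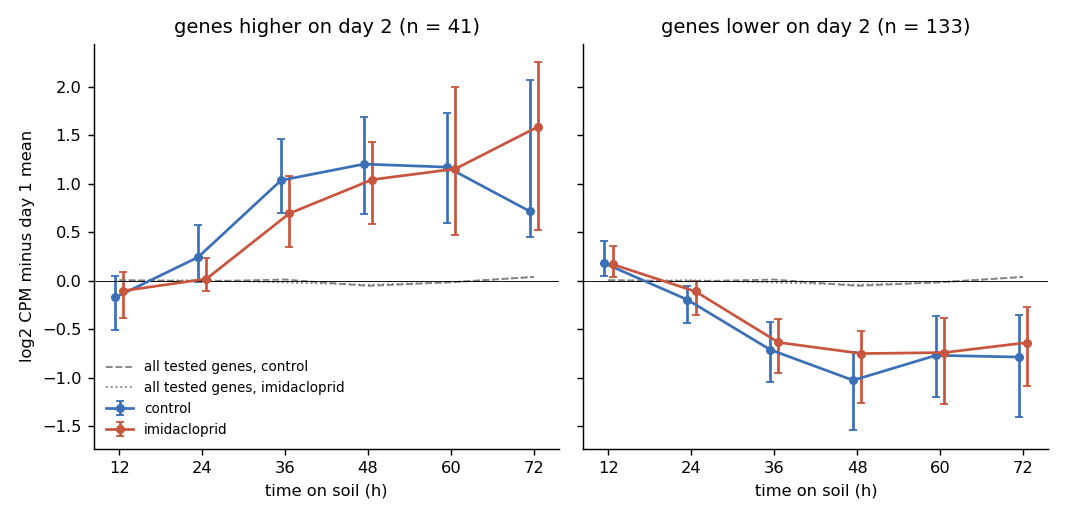
Median log2 CPM minus the mean of day 1 (vertical axis) at each time on soil (horizontal axis, h) for the 41 genes higher and the 133 genes lower on day 2, in controls (blue) and with imidacloprid (red), with bars from the lower to the upper quartile over genes and grey lines for all tested genes. The higher genes stood at 1.03 in controls and 0.69 with imidacloprid at 36 h, and the lower genes at -0.71 and -0.64.

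In both lists the largest step between consecutive times lay between 24 and 36 h. Relative to the mean of day 1, the higher genes had a median of -0.17 in controls and -0.10 with imidacloprid at 12 h, 0.24 and 0.02 at 24 h, 1.03 and 0.69 at 36 h and 1.20 and 1.04 at 48 h on the log2 scale. At 60 h they stood at 1.17 and 1.15, and at 72 h at 0.71 and 1.59. The lower genes went from 0.18 and 0.17 at 12 h and -0.20 and -0.11 at 24 h to -0.71 and -0.64 at 36 h and -1.03 and -0.75 at 48 h, and stood at -0.79 and -0.64 at 72 h. The first 4 of these times chose the genes, so the size of that step is a description.

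Among the named genes, Fcan01_26995 went on to 26.5 CPM ± 5.55 (SD, n = 3) in the controls of 72 h and 42.5 ± 8.28 in the exposed libraries, all 6 libraries above every library of days 1 and 2. Fcan01_17222 stood at 5.73 CPM ± 2.01 and 7.97 ± 2.68 at 72 h, where the lowest library had 3.45 CPM, against 3.46 CPM in the highest library of day 2 on this scale. Fcan01_06632 stayed low in controls, at 1.52 CPM ± 0.573 at 60 h and 0.840 ± 0.416 at 72 h, and stood at 5.80 ± 6.01 and 6.72 ± 4.27 with imidacloprid. At 72 h Fcan01_16479 had 0.190 CPM ± 0.174 in controls and 0.883 ± 0.236 in exposed libraries.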

How the data were processed

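One deposited table of estimated counts per gene model was used, with 24 of its 36 libraries in the tests and the other 12 (60 and 72 h) for levels only. Per the labels' protocols, TRIzol was used for RNA extraction and 1 ug of RNA went into each TruSeq stranded mRNA library. The authors then used Trim Galore (cut-adapt wrapper, version 0.6.7) for trimming, Salmon 1.4.0 for alignment to transcripts and DESeq2 1.28.1 for normalization, per the same labels. The deposited values are estimated counts before normalization, since totals differ between libraries, and 0 of them were not whole numbers, so rounding changed none. Which transcriptome release served is not given in the sources consulted here. Salmon divides reads between similar transcripts, so counts of near-identical copies are uncertain. Of the 28734 identifiers, 0 were found in the RefSeq gene table of the species (27231 genes, assembly ASM221717v1), so names, gene lists, positions and sequences are not used here.

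Groups came from treatment and time in the labels. Genes were kept by filterByExpr over the 8 groups (minimum count 10, minimum total 15), which left 66.6% of gene models and 99.96% of the counts, and libraries were scaled by TMM (factors 0.918 to 1.064). Tests used edgeR 4.0.16 in R 4.3.3, a robust quasi-likelihood fit, with Benjamini-Hochberg adjustment over all tested genes at 0.05. The main model held treatment, hour class and day (20 residual degrees of freedom, biological coefficient of variation 38.6%). The other 6 comparisons were contrasts of 8 group means (16 degrees of freedom, 35.0%). The standard error is the log2 fold change divided by the square root of F. Log2 CPM used a prior count of 2. Values per library were tested by exact permutation of the days within 4 strata of 6 libraries (160000 exchanges). The steps were tested on simulated data.

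The set of 108 genes is the largest cluster (complete linkage, height 0.5 in units of 1 minus correlation) of 171 genes with a variance of log2 CPM over 4 in 36 libraries. Pairs of libraries of a group had a chi-square per degree of freedom of 22.1 to 367 (24 pairs), so none was taken as a copy. The comparison, the lists and the tests were chosen with earlier results of these data known. Named genes are, per comparison, the 2 largest changes each way among called genes of at least 1 CPM with the same sign in every stratum averaged (no sign rule for the 2 changes of a difference). Exceptions are marked. Alternatives were DESeq2 1.42.0 and its size factors, limma-voom with and without library weights (limma 3.58.1), other filters and designs, glmTreat, 1 surrogate variable (sva 3.50.0), and libraries left out.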

Additional observations from a re-analysis of the deposited data

Results flagged for a closer look

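The differences between the days differed between controls and exposed animals for 48 genes by the test of the difference itself (edgeR adjusted p), which is why they stand here. The values for Fcan01_17957 and Fcan01_08641 were 1.62 and 1.43 in log2 units, imidacloprid minus control. For Fcan01_00201 and Fcan01_09433 the fitted values were -17.1 and -15.9. These depend on how counts of 0 are handled and are no measure of size, since both genes stood under the floor of 0.148 CPM in the 18 libraries that did not stand apart. All 46 genes with a downward difference followed the set of 108 genes. Leaving out the 6 libraries in which the set was high leaves 2 groups with a single library each, so calls of that fit are not given.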

How the results depend on the processing

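The comparisons are given here in the order all libraries, controls, imidacloprid, change with treatment, 36 against 12 h, 48 against 24 h and change with hour, where the counts with the main settings were 174, 35, 1, 48, 46, 25 and 0. Values stand here where a count moved by more than 1.5 times. With DESeq2 the counts were 577, 506, 152, 330, 293, 160 and 43, and with library-weighted limma-voom 1649, 816, 93, 3, 76, 3106 and 313. With limma-voom controls gave 23, the change with treatment 0 and 48 against 24 h 9. Without a filter on low counts all libraries gave 112, the change with treatment 0 and 48 against 24 h 11, and with at least 5 CPM in 3 libraries 97, 0 and 12. With 1 surrogate variable the counts were 769, 163, 64, 2, 287, 137 and 19. For 36 against 12 h that fit had 173 higher and 114 lower genes, the reverse of the main balance. In the comparison of all libraries lower genes were the more numerous in every setting. The balance was nearer there with library-weighted limma-voom (671 higher and 978 lower), as it was in controls with DESeq2 (224 and 282). With glmTreat they were 17, 7, 0, 0, 5 and 3, up to 48 against 24 h. Without the libraries that stood apart the comparison of all libraries gave 4. The other comparisons then rest on control 48 h and imidacloprid 12 h with a single library each, so their counts are not given. With the set's level as a covariate, controls gave 9, the change with treatment 0 and 48 against 24 h 5. Without imidacloprid 12 h replicates 5 and 6, whose titles are irregular, imidacloprid gave 4 (all lower, 0 of them called with all libraries), the change with treatment 116, 36 against 12 h 98 and 48 against 24 h 12. With all 36 libraries the change with treatment gave 0. Fits of only the 12 libraries concerned gave 12 for controls, 0 for imidacloprid, 4 for 36 against 12 h and 9 for 48 against 24 h. The causes of these moves were not tested, and some of the fits hold fewer libraries.

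A replicate block lowered the counts to 19 over all libraries (2 higher and 17 lower), 2 in controls, 0 with imidacloprid and 3 for the change with treatment. The labels do not say whether the numbers pair the samples, and the following values cannot decide it. The 21 same-numbered pairs of libraries had correlations of their deviations from -0.307 to 0.428, with a median of -0.05, and 4 were over 0.1. The 87 pairs of different number ran from -0.595 to 0.679, with a median of 0.006, and 29 were over 0.1.

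With 1 library left out at a time the counts ranged from 76 to 887 over all libraries, 10 to 75 in controls, 0 to 13 with imidacloprid, 0 to 374 for the change with treatment, 3 to 68 for 36 against 12 h, 1 to 56 for 48 against 24 h and 0 to 1 for the change with hour. The share of variance with day ranged from 5.36% to 8.10%, and it was 7.71% (exact permutation p = 0.0483, unadjusted) with at least 5 CPM in 3 libraries. Of 281 values of the 21 named results under other settings, 187 kept their call, 93 lost it and 1 reversed: the fitted change with treatment of Fcan01_09433, no measure of size, was 0.38 with the level of the set as a covariate. Of 504 with 1 library left out, 312 kept the call, 192 lost it and 0 reversed. With DESeq2 size factors the main count was 170, 47 higher and 123 lower. Genes near the floor of 0.148 CPM are limited by depth, the others by the spread between 3 libraries a group.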

Other observations

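Fcan01_17957, the gene called between the days with imidacloprid, had 68.3 CPM ± 18.7 (SD, n = 3) in the controls of 60 h and 369 ± 133 in the exposed libraries of that time. At 72 h it had 72.3 ± 11.7 and 366 ± 36.8 CPM. The exposed libraries of these times, from 256 to 515 CPM, lay above all control libraries, from 52.1 to 88.8 CPM. Fcan01_10778 stood at 7.64 CPM in control 48 h replicate 6, and at 0.867 and 0.861 CPM in replicates 2 and 4 of that group. Both replicate 6 and replicate 2 were among the libraries that stood apart. The variance that went with a change of the day difference with treatment was 7.76% over all tested genes, above the 6.63% that went with day. The libraries that stood apart were exposed on day 1 and controls on day 2, the same arrangement as this change. The 7.76% therefore takes in the genes that followed the set of 108, and the treatment and the set cannot be told apart in it. The change with hour of day took 6.12%. These shares had no test of their own.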
